A study of Homo sapiens with 4 samples.

Results

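Repressor genes of myogenic differentiation (6 of 20033 protein-coding genes) were followed in RD cells: the Snail genes SNAI1 and SNAI2, the ZEB genes ZEB1 and ZEB2, and the basic helix-loop-helix (bHLH) genes BHLHE40 and BHLHE41. They were taken by name, by a rule that uses no measured value, but with earlier results of these data known. Each was taken as its GENCODE gene body with 10 kb on each side on hg38. RD is an established line of fusion-negative rhabdomyosarcoma, a tumor of the muscle lineage whose cells express MYOD but do not complete differentiation. The cells carried a vector with an shRNA, either a non-targeting sequence (shSCR, labelled WT, here control) or one against SKP2 (shSKP2, labelled SKP2 knockdown), the substrate receptor of an SCF ubiquitin ligase. MYOD and the active-chromatin mark H3K27ac were each profiled by ChIP-seq in both arms, which gave 4 libraries, 1 per group, from a single cell line. Each arm had 1 library per antibody, so the error between replicates is unknown, no p-value was computed, and all intervals cover counting error only.

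Snail and ZEB proteins are zinc-finger repressors that bind E-boxes of the form CAGGTG and recruit corepressors such as CtBP and histone deacetylases. They are known for silencing epithelial genes, and in myoblasts they occupy E-boxes of muscle genes and hold back activation by MYOD until differentiation begins. BHLHE40 and BHLHE41 are bHLH repressors of the circadian system that bind CACGTG, and BHLHE40 has also been described as an antagonist of MYOD. MYOD itself binds E-boxes, most often CAGCTG, with E protein partners.

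The lists held 25356 H3K27ac peaks in the control and 38457 after knockdown, and 5814 and 8457 MYOD peaks. Read totals are not in the lists, and the lowest local background recovered from each list, a proxy for depth, was 1.75, 1.61, 1.48 and 1.94 fragments in that order. The knockdown lists covered more sequence, 23.7 Mb against 11.6 Mb for H3K27ac and 2.72 Mb against 1.79 Mb for MYOD, so more cover at a gene has to be read against more cover genome-wide. Of 10 muscle-lineage marker genes, 8 had a MYOD peak in each list, against 2 and 4 of 10 markers of other cell types. H3K27ac had a peak at 8 and 9 of the muscle markers and at 7 and 7 of the others. DES, the muscle intermediate filament gene, had no H3K27ac peak. The lists do not measure SKP2, so the knockdown itself could not be checked from them.

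H3K27ac covered more sequence after knockdown at 5 of the 6 genes, namely SNAI2, ZEB1, ZEB2, BHLHE40 and BHLHE41, and less at SNAI1 alone. Of all protein-coding genes, 66.7% had more H3K27ac cover after knockdown and 3.92% had less. These shares include genes without an H3K27ac peak, whereas all 6 members had one. Of the 14162 protein-coding genes with any H3K27ac, 13371 had more cover and 786 had less. The direction of the first 5 genes was thus that of most genes, and the direction of SNAI1 was uncommon. Cover was at least 1.5 times the control value at 4 members. Over all genes the share was 51.0%, which also counts genes with cover after knockdown and none in the control. Each member had control cover. Summed over the members, 20 control peaks covered 5.85 kb and 26 peaks of the knockdown covered 12.1 kb, a ratio of 2.06 beside 1.96 over all genes. ZEB2 alone gave 9 and 16 of these peaks and 2.72 kb and 6.99 kb of this cover. The ratio thus rests largely on ZEB2 and does not describe the members in general. The median difference was 0.574 kb for the members and 0.398 kb for all genes.

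MYOD peaks lay at 5 of the 6 genes, with ZEB1 the exception, whereas 35.0% of all protein-coding genes had a MYOD peak in either list. Cover was higher after knockdown at 4 members, SNAI1, BHLHE40, BHLHE41 and ZEB2, the last by 1 bp, and lower at SNAI2. Over all genes 25.2% had more MYOD cover after knockdown and 9.78% had less. The control list held 4 member peaks and the knockdown list 7, which fell on 8 distinct sites, 3 of them in both lists.

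**Figure D1:**
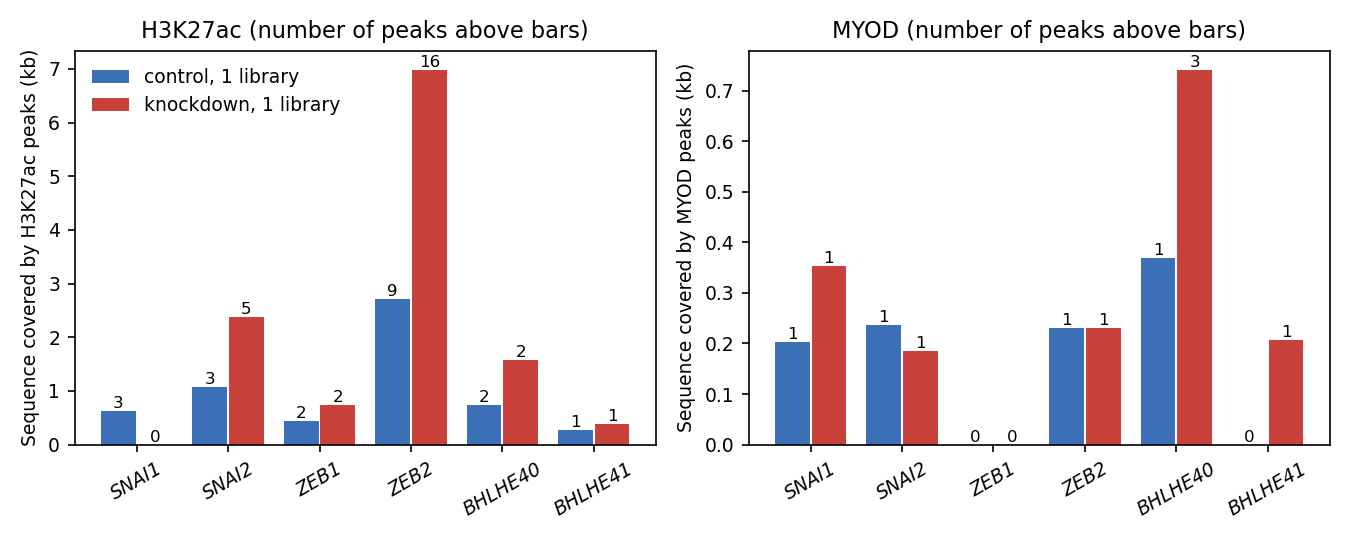
Sequence covered by H3K27ac peaks (left, kb) and MYOD peaks (right, kb) in each gene with 10 kb on each side, 1 control (blue) and 1 knockdown (red) library per antibody, with the number of peaks above each bar. H3K27ac bars are taller after knockdown at all genes but SNAI1, which drops from 3 peaks to 0, and ZEB2 has the tallest with 16 knockdown peaks.

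**Figure D2:**
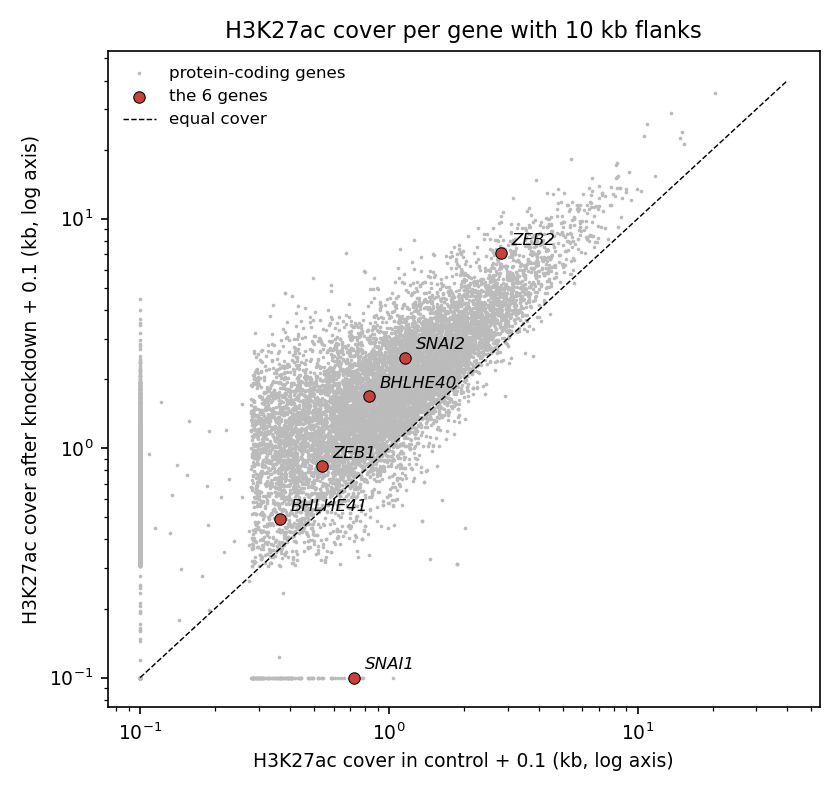
H3K27ac cover of each protein-coding gene in the control (x axis) against the knockdown (y axis), in kb with 0.1 added on log axes, with the 6 genes in red and a dashed line at equal cover. SNAI1 lies on the floor of the plot at 0 knockdown cover, the other members lie above the dashed line within the cloud of genes, and ZEB2 has the most cover of the 6.

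Sequences under MYOD summits of BHLHE40, BHLHE41 and ZEB2 are shown where the window held a hexamer searched. The E-box form tells which factors could read the same site. CAGGTG is shared by MYOD, Snail and ZEB proteins, CAGCTG is the usual MYOD form, and CACGTG is read by BHLHE40 and BHLHE41. Each sequence is 201 bases of the plus strand of hg38 centered on the summit. Capitals mark matches of 4 hexamers searched on both strands. The palindromes are CAGCTG and, for the bHLH repressors, CACGTG. On the minus strand, CAGGTG reads as CACCTG. The last hexamer, CAGATG, reads as CATCTG on the minus strand and was added after the peaks had been seen. The windows are chr3:4978525-4978725 and chr3:4986799-4986999 for BHLHE40, chr12:26113963-26114163 for BHLHE41, and chr2:144402408-144402608 and chr2:144496064-144496264 for ZEB2. The 2 other BHLHE40 windows, chr3:4978901-4979101 and chr3:4986946-4987146 of the knockdown list, held none of the 4 hexamers and are not shown.
BHLHE40, knockdown summit upstream of the TSS: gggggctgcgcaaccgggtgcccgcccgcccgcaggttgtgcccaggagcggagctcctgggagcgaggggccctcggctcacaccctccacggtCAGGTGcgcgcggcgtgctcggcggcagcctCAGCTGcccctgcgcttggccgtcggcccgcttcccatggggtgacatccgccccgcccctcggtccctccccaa
BHLHE40, control summit downstream of the gene: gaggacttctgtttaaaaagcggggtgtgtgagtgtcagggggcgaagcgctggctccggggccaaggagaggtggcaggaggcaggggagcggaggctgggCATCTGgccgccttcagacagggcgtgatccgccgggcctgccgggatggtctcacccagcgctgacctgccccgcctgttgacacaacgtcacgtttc
BHLHE41, knockdown summit: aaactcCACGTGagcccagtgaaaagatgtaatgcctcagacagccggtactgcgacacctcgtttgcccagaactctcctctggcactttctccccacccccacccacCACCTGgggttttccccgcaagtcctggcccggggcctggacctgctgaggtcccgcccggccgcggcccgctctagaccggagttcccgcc
ZEB2, control summit in intron 6: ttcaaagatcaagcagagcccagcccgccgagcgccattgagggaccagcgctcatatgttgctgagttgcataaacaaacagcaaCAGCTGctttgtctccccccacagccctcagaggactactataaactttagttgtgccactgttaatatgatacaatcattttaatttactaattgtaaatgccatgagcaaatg
ZEB2, knockdown summit in intron 2: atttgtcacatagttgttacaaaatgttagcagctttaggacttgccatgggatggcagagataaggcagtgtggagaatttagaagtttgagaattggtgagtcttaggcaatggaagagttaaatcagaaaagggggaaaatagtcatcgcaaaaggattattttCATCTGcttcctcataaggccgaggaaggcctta

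Of the 9 MYOD peaks of both lists at SNAI2, ZEB2, BHLHE40 and BHLHE41, 5 had CAGCTG or CAGGTG in this window, 4 of them CAGGTG and 3 of them CAGCTG. These are peaks and not distinct sites. The SNAI2 site and the BHLHE40 site beyond the 3' end are each counted once per list, and SNAI2 had CAGGTG in both windows. The share of windows with either hexamer was not computed over a whole list. In the whole control list CAGCTG was in 64.3% of windows (Wilson 95% interval 63.1 to 65.6) and CAGGTG in 41.7% (interval 40.5 to 43.0), and in the knockdown list in 60.7% (interval 59.7 to 61.8) and 45.1% (interval 44.1 to 46.2). At BHLHE41 the window held CACCTG 11.5 bp from the summit and, at its edge outside the peak, a CACGTG, a form found in 4.06% of control and 4.40% of knockdown MYOD windows. CAGATG was in 19.1% of control and 18.8% of knockdown MYOD windows. In the knockdown window of ZEB2 it was the only match, outside the peak and 69.5 bp from the summit. Over whole peaks instead of windows, 7 of the 9 held CAGCTG or CAGGTG. In the lists, CAGCTG was in 70.7% of whole control peaks and 68.7% of whole knockdown peaks, and CAGGTG in 51.2% and 55.7%. These matches describe letters only, and no binding of a repressor was measured.

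SNAI1, which encodes Snail, was the one member with less H3K27ac after knockdown. Its gene (chromosome 20, 49982980 to 49988886, plus strand) and flanks had 3 H3K27ac peaks covering 0.627 kb in the control list and 0 in the knockdown list. In the control, a peak upstream (49979166 to 49979363) was 3.96-fold over local background. The pair beyond the 3' end (49988933 to 49989116 and 49989464 to 49989708) reached 3.69-fold and 3.02-fold. All of them were weak calls, with a -log10 p of 6.56, 7.81 and 5.31 beside a median of 9.49 over the control list and with 14, 21 and 17 fragments at the summit. The nearest knockdown H3K27ac peak was 45.9 kb from the gene. Of all protein-coding genes, 0.589% had an H3K27ac peak in the control list and none in the knockdown list. That share also counts genes without a control peak, which had none to lose. Among the 3791 genes with 3 or more control peaks such a complete loss was rare and was seen at 4 (0.106%). These genes were not matched to SNAI1 for the strength of their peaks. A larger decrease in cover than that of SNAI1 was seen at 23 of all 20033 genes. All 3 peaks lay outside the gene body and none reached a -log10 p of 10, so the difference is 0 under either restriction.

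The MYOD site of SNAI1 lay at the promoter, just upstream of the transcription start site (TSS), and was in both lists. The control peak was 7.35-fold with 30 fragments at its summit, and the knockdown peak was 6.80-fold with 34. Their summits differed by 1 bp, and the knockdown peak was wider at 354 bp against 202 bp. The fold exceeded the list median in both arms (5.71 and 5.35), and the -log10 p was equal to or above that of 72.5% and 76.1% of all MYOD peaks. No H3K27ac peak touched it, the nearest being 3328 bp away in the control and 45455 bp away after knockdown.

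SNAI2, which encodes Slug, had the strongest MYOD peak of the members. The gene lies on chromosome 8 (48917598 to 48921740, minus strand), and the peak was about 2 kb upstream of its TSS, with summits at -2181 bp in control cells and -2167 bp in knockdown cells. It was 9.63-fold in the control (48923526 to 48923762, 43 fragments, -log10 p of 31.6) and 7.06-fold after knockdown (48923533 to 48923717, 34 fragments, -log10 p of 20.8). The value was thus lower after knockdown, as was its width, 185 bp against 237 bp, although the knockdown list was the longer one. In the control its -log10 p was equal to or above that of 88.0% of all MYOD peaks, and after knockdown of 76.9%. The control window held both CAGGTG and CAGCTG, the nearer one centered 1.5 bp from the summit.

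At SNAI2, 3 H3K27ac peaks covered 1.07 kb in control cells, and 5 covered 2.38 kb in knockdown cells. Those nearest the TSS were called separately in the control (48921615 to 48921932, 4.35-fold, and 48922120 to 48922387, 2.95-fold) and were joined in the knockdown list into one of 1001 bp (48921581 to 48922581, 4.21-fold). Knockdown-only peaks lay in coding exon 1 (48921047 to 48921332, 2.73-fold), between the promoter and the MYOD site (48922956 to 48923339, 3.33-fold) and downstream of the gene (48911706 to 48912119, 3.86-fold). One peak did not follow this pattern. The H3K27ac peak on the far side of the MYOD site was 480 bp wide and 4.60-fold in the control (48923801 to 48924280) and 296 bp wide and 2.67-fold after knockdown (48923795 to 48924090). The MYOD peak itself sat in a gap of the mark, with this H3K27ac peak 39 bp away in control cells and 78 bp away in knockdown cells. Local background at the H3K27ac summits near the promoter was 8.35 to 8.89 fragments in the control, well over the lowest of the library, and what raised it was not tested.

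BHLHE40 (chromosome 3, 4979437 to 4985323, plus strand) had the largest gain in MYOD cover among the members, from 0.369 kb under 1 control peak to 0.742 kb under 3 peaks of the knockdown. Both added peaks were upstream of the TSS inside the antisense gene BHLHE40-AS1. One had its summit at -812 bp (4978490 to 4978688, 4.74-fold, 20 fragments) and held CAGGTG and CAGCTG. The other had its summit at -436 bp (4978946 to 4979167, 4.10-fold, 17 fragments). Its window held none of the 4 hexamers, but the called peak held 1 CAGGTG beyond the window. Each added MYOD peak overlapped an H3K27ac peak of the knockdown list, and neither reached a -log10 p of 10 (9.87 and 7.65). With both MYOD lists shortened to equal length, MYOD cover at BHLHE40 was lower after knockdown, by a difference of -0.170 kb.

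The H3K27ac peaks at BHLHE40 themselves were already called in the control. The more distant one widened from 487 bp and 4.39-fold (4977796 to 4978282) to 1379 bp and 5.89-fold (4977310 to 4978688), with summits 2 bp apart. The one nearer the TSS was 5.43-fold in the control (4978938 to 4979184) and 4.18-fold in the knockdown (4978985 to 4979190). Total cover was 0.734 kb and 1.58 kb. A further MYOD site beyond the 3' end was in both lists, with summits 147 bp apart. It was 4.81-fold in the control (4986644 to 4987012) and 3.95-fold after knockdown (4986797 to 4987117). The nearest H3K27ac peak to this site was 7460 bp away in control cells and 7607 bp in knockdown cells.

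BHLHE41 (chromosome 12, 26120030 to 26125037, minus strand) carried a single site, beyond its 3' end and almost 11 kb from its TSS. It also lies upstream of SSPN, which encodes sarcospan of the dystrophin complex and overlaps BHLHE41 on the opposite strand. H3K27ac there was a weak control peak (26113909 to 26114173, 3.64-fold, 9 fragments, -log10 p of 4.82) and a stronger knockdown peak (26114005 to 26114393, 5.71-fold, 18 fragments, -log10 p of 11.1). MYOD was called in the knockdown list alone (26113995 to 26114200, 4.56-fold, 16 fragments) and overlapped that H3K27ac peak. In the control list the nearest MYOD peak was 879 kb from the gene. The promoter of BHLHE41 had no peak of either antibody in any list. The control H3K27ac call is below the -log10 p of 5 that the methods state, and without it the control has no peak at this gene.

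**Figure D3:**
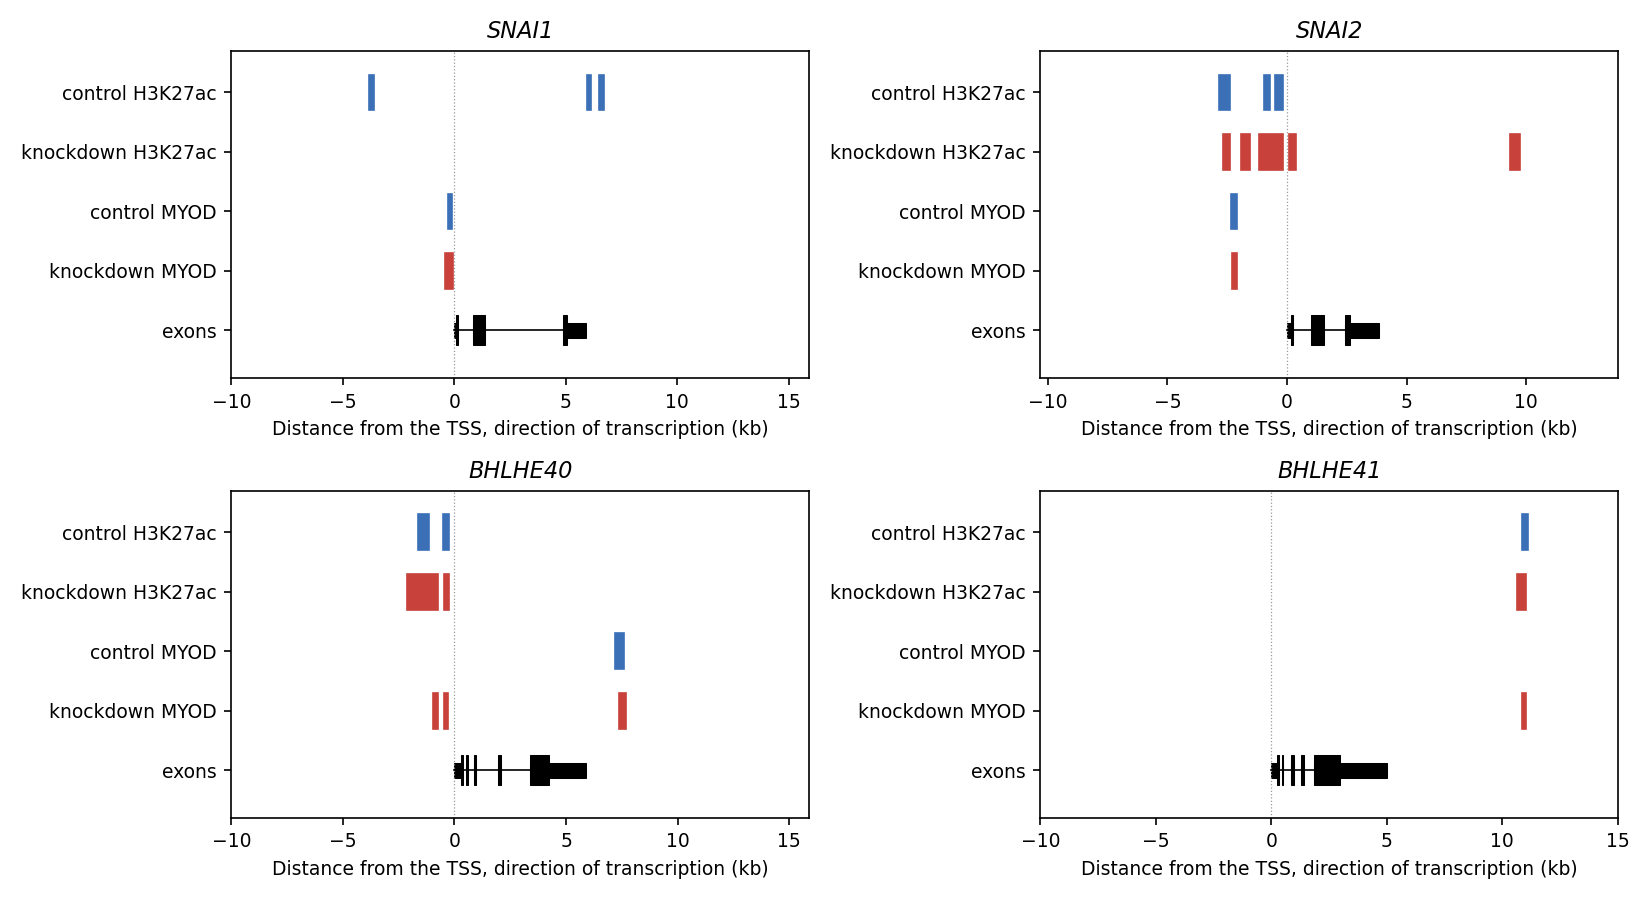
Called peaks at SNAI1, SNAI2, BHLHE40 and BHLHE41 in the 4 libraries (rows, blue control, red knockdown), drawn to scale as distance from the TSS in kb along the direction of transcription, with exons of the canonical transcript in black (tall coding, low untranslated). MYOD marks the SNAI1 and SNAI2 promoter regions in both arms, while the peaks just upstream of the BHLHE40 TSS and the BHLHE41 site are in the knockdown MYOD row alone.

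ZEB2 (chromosome 2, 144364364 to 144521057, minus strand) had the largest H3K27ac difference of the members, with 9 control peaks over 2.72 kb and 16 peaks of the knockdown over 6.99 kb. Its domain of 177 kb gives much room for peaks, and the covered share was 1.54% in the control and 3.95% after knockdown. The difference of 4.26 kb exceeded that of 99.0% of protein-coding genes. Around the start of the gene, control peaks lay in intron 1 (144517330 to 144517539 and 144517750 to 144517989). After knockdown a peak of 1144 bp (144517274 to 144518417, 3.44-fold) spanned both. A further knockdown-only peak had its summit 104 bp downstream of the TSS in the 5' UTR of exon 1 (144519764 to 144520051, 2.80-fold). Downstream of the canonical transcript, 4 knockdown-only peaks were called, the strongest at 144358244 to 144358609 (5.92-fold, -log10 p of 15.5). Intron 2 held 3 more knockdown-only peaks (3.22-fold to 3.50-fold) and 1 control-only peak (144452782 to 144452982, 4.13-fold). Upstream of the gene a control-only peak (144523690 to 144524120, 3.31-fold) lay beside one present in both lists.

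The other concentration of H3K27ac at ZEB2 lay around exons 5 and 6, in introns 4 to 6, in both arms, with 4 peaks in the control and 5 after knockdown. Its control peaks were 2.86-fold to 3.69-fold with 34 to 45 fragments at the summit, and its knockdown peaks 2.53-fold to 3.17-fold with 45 to 57. Local background there was 11.2 to 11.5 fragments in the control and 17.2 to 17.6 after knockdown, against lowest values of 1.75 and 1.61, and its part in these calls was not tested. The control-only MYOD peak of ZEB2 adjoined it in intron 6 (144402304 to 144402533, 3.71-fold, 22 fragments, background of 5.2 fragments) and held CAGCTG. The knockdown MYOD list had no peak there and instead a weak one in intron 2 (144495973 to 144496203, 3.68-fold, 10 fragments, -log10 p of 5.10). MYOD cover at ZEB2 was thus nearly equal, 0.230 kb and 0.231 kb, from different places 93440 bp apart. With both MYOD lists shortened to equal length the difference was -0.230 kb.

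ZEB1 (chromosome 10, 31318495 to 31529814, plus strand) had no MYOD peak in either list within its domain, and the nearest was 73.6 kb from the gene in the control and 73.5 kb after knockdown. H3K27ac cover was 0.436 kb and 0.732 kb, from 2 peaks in each arm, so that 0.188% and 0.316% of the domain was covered. The peak upstream of the canonical TSS was in both lists, 236 bp wide and 3.61-fold in the control (31318490 to 31318725) and 502 bp wide and 4.30-fold after knockdown (31318494 to 31318995). A knockdown-only peak lay just inside intron 1 (31319266 to 31319495, 3.65-fold). A control-only peak lay deep in intron 1 (31426953 to 31427152, 4.36-fold, 11 fragments). Several RefSeq promoter windows of ZEB1 were searched. The window over the canonical TSS (GRCh38.p14, 31318966 to 31319265) held 3 copies of CAGGTG, a form in 20.6% of all 35116 promoter windows.

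**Figure D4:**
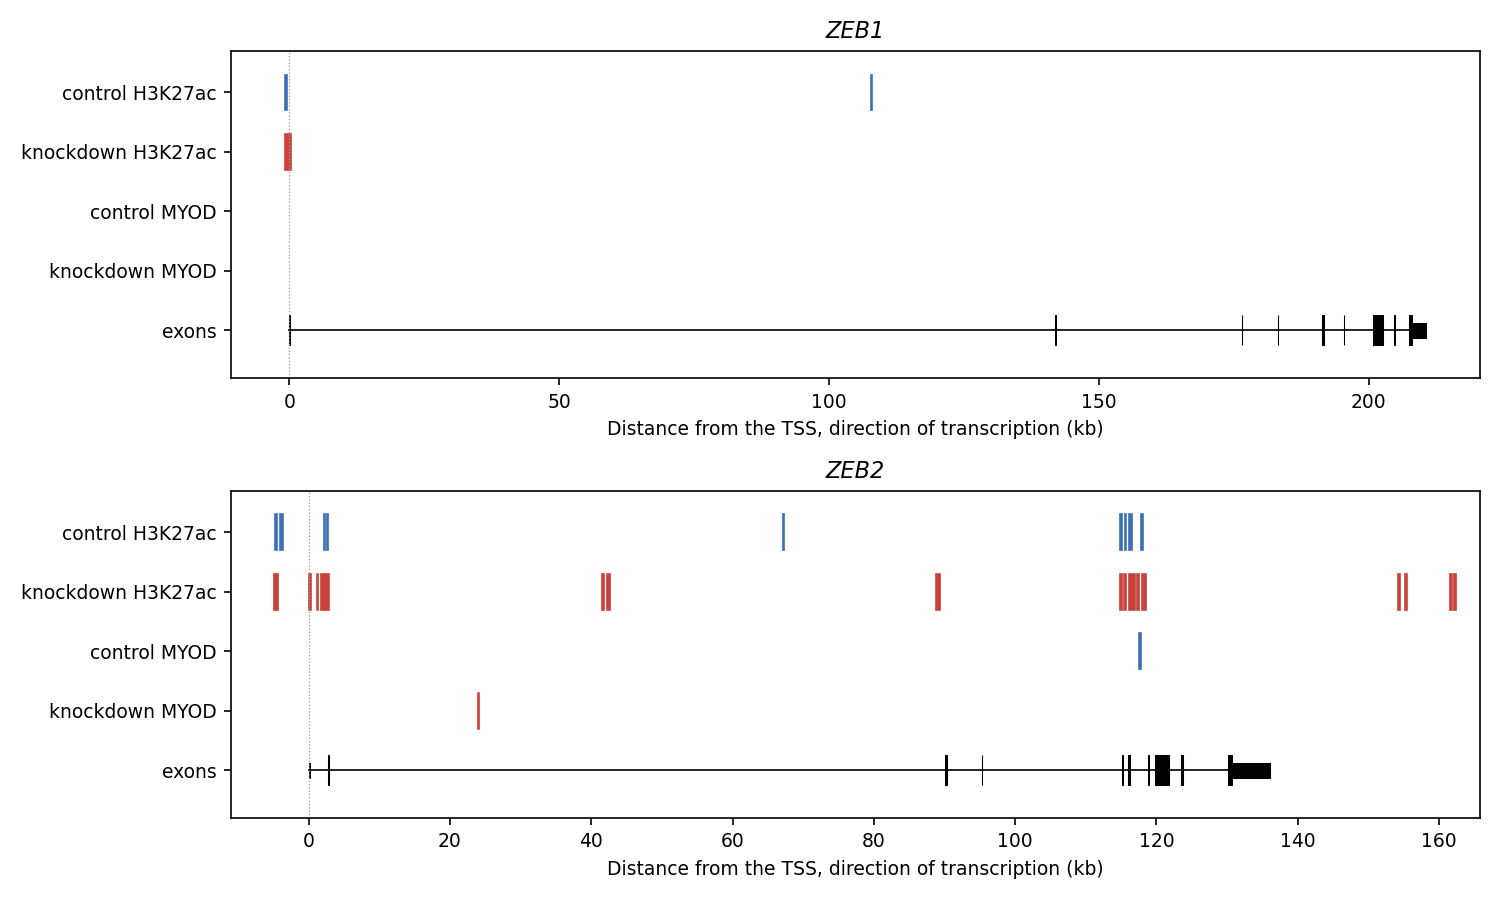
Called peaks at ZEB1 and ZEB2 in the 4 libraries (rows, blue control, red knockdown), as distance from the TSS in kb along the direction of transcription, with exons of the canonical transcript in black. ZEB1 has H3K27ac near its TSS and no MYOD peak, and ZEB2 has H3K27ac at its start and around exons 5 and 6 in both arms, with knockdown peaks added in intron 2 and beyond the canonical 3' end.

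Among the 6 promoters, BHLHE40, BHLHE41, ZEB1 and ZEB2 were matched in the RefSeq table. BHLHE40 and BHLHE41 each had 1 CACGTG in their window, a form in 7.26% of all promoters, and the ZEB2 window had none of the hexamers searched. CAGCTG was in 17.9% of all promoters. It was in 1 copy in each of the ZEB1 windows at 31320304 to 31320603 and at 31321410 to 31321709, which start downstream of the canonical TSS, and in none of the windows of BHLHE40, BHLHE41 and ZEB2. A further ZEB1 window upstream (31318167 to 31318466) held 1 CAGGTG, as did the BHLHE41 window. Apart from this ZEB1 window and the one over the canonical TSS, no ZEB1 window held CAGGTG.

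Of the 20 control H3K27ac peaks at the members, 14 were overlapped by a knockdown peak (70.0%, interval 48.1 to 85.5), beside 86.4% of the whole control list (interval 86.0 to 86.8). Of the 26 knockdown peaks, 12 had a control counterpart (46.2%, interval 28.8 to 64.5), beside 51.4% (interval 50.9 to 51.9). ZEB2 held 9 of these control peaks and 16 of these knockdown peaks, many of them neighbors. The member peaks are therefore not independent, their intervals are too narrow, and the shares describe ZEB2 more than the other genes. The 6 control-only peaks were narrow, with a median of 200.5 bp, and none exceeded a -log10 p of 7.81. The 14 knockdown-only peaks lay at SNAI2, ZEB1 and ZEB2 and ranged from 2.54-fold to 5.92-fold. For MYOD, 3 of 4 control and 3 of 7 knockdown peaks were matched. The 5 unmatched MYOD peaks were all at or under 4.74-fold, below the median of their list.

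H3K27ac overlapped 1 of the 4 control MYOD peaks (25.0%, interval 4.56 to 69.9), at ZEB2, and 3 of the 7 knockdown peaks (42.9%, interval 15.8 to 75.0), at BHLHE40 and BHLHE41. Over the whole lists the shares were 38.9% (interval 37.6 to 40.1) and 51.5% (interval 50.4 to 52.6). The MYOD sites with the highest folds, at SNAI1 and SNAI2, were overlapped in neither arm, and the knockdown-only ones at BHLHE40 and BHLHE41 were overlapped by H3K27ac peaks that already had a control counterpart.

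**Figure D5:**
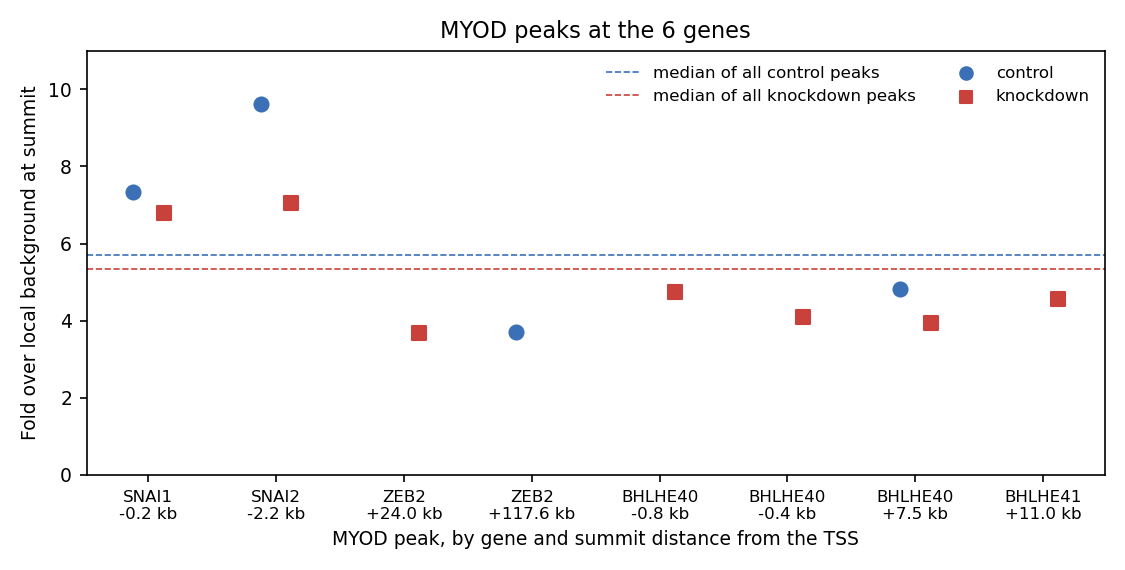
Fold over local background at the summit of each MYOD peak of the 6 genes, by gene and distance of the summit from the TSS, in the control (blue circles) and knockdown (red squares) library; dashed lines are the medians of all peaks of each list (5.71 control, 5.35 knockdown). The SNAI1 and SNAI2 sites lie above the medians in both arms with the lower value after knockdown, and all other sites lie below.

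The pattern of cover over the 4 libraries was compared with that of all other protein-coding genes, by the Euclidean distance of log2 of cover in kb with 0.1 added. SNAI1 was nearest to CLDN4 (distance 0.262), MDFI (0.646) and SLC9A7 (1.09). CLDN4, which encodes a tight-junction protein of epithelia, had 0.680 kb of H3K27ac in the control and 0 after knockdown, with MYOD over 0.187 kb and 0.287 kb. MDFI, which encodes an inhibitor of MYOD-family proteins, had 0.670 kb and 0 of H3K27ac and 0.330 kb and 0.247 kb of MYOD. SNAI2 was nearest to NKAPL (0.230), SH3D19 (0.258) and TRMT11 (0.272), and ZEB2 to CUBN (0.252), SORBS2 (0.295) and HS6ST2 (0.303). BHLHE40 was nearest to SULT4A1 (0.213), the gene ENSG00000288658 (0.238) and SLC22A2 (0.283), BHLHE41 to CCDC158 (0.130), GREP1 (0.138) and BICDL1 (0.167), and ZEB1, with no MYOD cover, to CHCHD3 (0.0139), EPRS1 (0.0164) and FOXD2 (0.0175).

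Genes that work with these repressors were described from lists of 71 genes in all. H3K27ac cover was higher after knockdown at 55 of them and lower at 6, beside 66.7% and 3.92% of all protein-coding genes. Those 2 shares include genes without a peak, and 14162 of the 20033 genes had any H3K27ac. MYOD cover was higher at 21 and lower at 10, beside 25.2% and 9.78%. The counts of each list are descriptions to be read against these shares, and none was tested. Of 12 relatives and other regulators of the mesenchymal state, 7 had more H3K27ac and none had less, with the largest gains at PRRX1, a mesenchymal homeobox gene (0.985 kb and 6.01 kb), and GRHL2, an epithelial transcription factor (0.808 kb and 1.71 kb). SNAI3, the remaining Snail gene, had 2 MYOD peaks in the control and 1 after knockdown, and H3K27ac of 0 and 0.487 kb. SCRT1, which encodes a neural repressor related to Snail, likewise had 2 and 1 MYOD peaks, covering 0.428 kb and 0.566 kb.

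Among 12 corepressor genes, all with an H3K27ac peak, 10 had more cover and 2 less. Of the 14162 protein-coding genes with any H3K27ac, 13371 had more and 786 less. LIMD1, encoding a LIM protein that binds Snail, had 1.84 kb and 5.96 kb, and CTBP2, encoding the corepressor CtBP2, had 6.12 kb and 9.72 kb, each with 2 control and 3 knockdown MYOD peaks. CTBP1 (1.76 kb and 1.63 kb) and AJUBA (0.810 kb and 0.545 kb) were the ones with less. Of 13 genes of Snail stability and upstream signaling, 11 had more, led by the ligand gene TGFB1 (1.58 kb and 3.84 kb) and the kinase gene CSNK1A1 (1.46 kb and 3.65 kb). BTRC, encoding the F-box protein that recognizes phosphorylated Snail, was the one with less (0.856 kb and 0.704 kb), and SMAD3, a transducer of TGF-beta signals, had 2 control MYOD peaks and 1 knockdown peak.

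Of 12 epithelial genes that Snail and ZEB proteins repress, 8 had more H3K27ac cover, 1 less and 3 no peak in either list, and the share with more was close to the 66.7% of all genes. The keratin gene KRT8 (0.736 kb and 3.42 kb) and the tight-junction gene OCLN (1.11 kb and 2.54 kb) had the largest gains, CLDN4 was the one with less, and CLDN3 had no H3K27ac peak and 1 control MYOD peak that reached into its domain by 0.019 kb. Of 10 mesenchymal genes, 7 had more, with COL1A2 (0.214 kb and 1.89 kb) and ITGA5 (0 and 0.919 kb) in front, and 2 had less, VIM (0.985 kb and 0.802 kb) and FN1 (1.31 kb and 1.19 kb). COL1A1 had MYOD over 0.277 kb and 0.665 kb, and TNC over 0.467 kb and 0.496 kb. All 12 clock genes had more H3K27ac, as at RORA (2.18 kb and 4.72 kb) and DBP (1.71 kb and 4.07 kb). This is to be read beside 13371 of the 14162 genes with any H3K27ac, since each clock gene had a peak. PER1 and PER2, period genes of the clock, had the most MYOD peaks of that list, with 0.745 kb and 0.924 kb of MYOD at PER1 and 0.618 kb and 0.836 kb at PER2. The median H3K27ac difference of the 6 lists ran from 0.246 kb in the mesenchymal regulators to 1.07 kb in the clock genes, beside 0.398 kb over all genes.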

How the data were processed

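ChIP-seq peak lists of 4 libraries were used, and groups were taken from the sample titles. Per the methods and the submitters' processing notes, the authors aligned reads to GRCh38 with BWA (version 0.7.17), called peaks per library with MACS3 against an input library with duplicates kept, and removed peaks in an exclusion list. For each peak the deposited files give a fold ratio of summit pileup over local background, a -log10 p and -log10 q, and a score, which is the -log10 p times 10, truncated. The methods state a -log10 p threshold of 5, but 2.41 to 4.13% of the deposited peaks lay under it, and the lists were used as deposited. Drosophila spike-in normalization is described, but whether it entered peak calling is not given in the sources used here, so cover and fold are not absolute occupancy.

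Peaks on the autosomes, X and Y were kept, and 1 peak of each H3K27ac list on another contig was dropped. Cover is the number of bases under peaks within a gene body (GENCODE release 44) and 10 kb on each side, and an overlap of 1 bp counted as shared. Distances refer to the canonical transcript. The number of fragments and the background at a summit were solved from the fold and -log10 p as a Poisson model, which gave a whole number for 100% of peaks within 0.001. Cover and this recovery were tested on simulated data. The sequence of the SNAI1 site is not reported here. Shares carry Wilson 95% intervals. Python 3.11.15, pandas 2.3.3, scipy 1.17.1 and pysam 0.24.0 were used.

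The genes and lists were chosen with earlier results of these data known. Named were the 6 genes, per list the 2 with the largest increase, the 2 with the largest decrease and the 2 with the most MYOD peaks, and the 3 genes nearest to each member in cover.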

Additional observations from a re-analysis of the deposited data

How the results depend on the processing

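Of 97 alternative values, 58 kept their direction and stayed within 1.5 times the value reported, 37 moved further and 2 reversed. In every alternative named here the cause was not tested beyond what its construction shows, namely fewer peaks or another window. When peaks had to reach a -log10 p of 10, no member had less H3K27ac, since the difference at SNAI1 became 0. It was 0.587 kb at SNAI2, 0.502 kb at ZEB1, 2.73 kb at ZEB2 and 0.389 kb at BHLHE41. At that threshold 1 member had more MYOD cover, and the MYOD difference was 0 at ZEB2, BHLHE40 and BHLHE41. With a minimum -log10 p of 5 the H3K27ac difference at BHLHE41 was 0.389 kb. With both lists of an antibody shortened to equal length, 2 members had more and 3 had less MYOD cover. The MYOD difference turned to -0.230 kb at ZEB2 and to -0.170 kb at BHLHE40, and the H3K27ac difference was 0.319 kb at SNAI2, 0.066 kb at ZEB1 and 1.28 kb at ZEB2.

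Within gene bodies alone, 3 members had more and 0 had less H3K27ac, and 1 had more and 0 had less MYOD cover. The H3K27ac difference was then 0.320 kb at SNAI2 and 0 at SNAI1, BHLHE40 and BHLHE41, and the MYOD difference 0 at SNAI1, SNAI2, BHLHE40 and BHLHE41, so those results rest on the flanks. With 50 kb on each side the H3K27ac difference was -0.231 kb at SNAI1, 2.26 kb at BHLHE40 and 0.452 kb at BHLHE41, and the MYOD difference at SNAI1 was 0.569 kb. The last value takes in a knockdown-only MYOD peak 46.1 kb from SNAI1. Its summit lay 0.08 kb from the TSS of another gene, RNF114. Knockdown-only member peaks reaching a -log10 p of 10 numbered 3 for H3K27ac and 0 for MYOD, with 0 control-only MYOD peaks. When a peak within 1000 bp counted as shared, 9 knockdown-only H3K27ac peaks were left. When a reciprocal overlap of 50% was required, 21 H3K27ac peaks of the knockdown had no control counterpart. An H3K27ac peak lay within 500 bp of 2 control MYOD peaks. No paired analysis was possible because each group is 1 library. Where no peak is listed, signal below the threshold of the caller may still be present.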

Other observations

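Beyond 10 kb, and up to 100 kb from each gene, few MYOD peaks were called. ZEB1, without a MYOD peak in its own domain, had 3 control and 2 knockdown MYOD peaks past its 3' end, of which those 73.6 kb and 90.7 kb from the gene were in both lists (5.47-fold and 8.29-fold in the control, 6.47-fold and 6.09-fold after knockdown). ZEB1 was the nearest protein-coding gene to each, although its TSS was 284 kb and 301 kb away. The nearer one was overlapped by H3K27ac in the knockdown alone. The remaining control peak, 74.2 kb from the gene and without a knockdown counterpart, was overlapped by control H3K27ac. H3K27ac in these surroundings covered 0.578 kb in the control and 2.48 kb after knockdown. SNAI2 had a further MYOD site 99.1 kb away in both lists, 5.74-fold and 5.44-fold. No MYOD peak lay in the surroundings of BHLHE40 or BHLHE41, where 0 control and 2 knockdown H3K27ac peaks were called at each.

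The 4 genes with 3 or more control H3K27ac peaks and none after knockdown were SNAI1, CLDN4, RAB3IL1 and SPEF2, named after their values were seen. Each had a MYOD peak in the knockdown list, and the former 3 had one in the control list too. Of all protein-coding genes, 35.0% had a MYOD peak in either list. The share among genes with 3 or more control H3K27ac peaks was not computed, so no link between lost H3K27ac and MYOD can be read from these genes. RAB3IL1 had 582 bp of MYOD in the control and 878 bp after knockdown.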
